A study of Mus musculus with 6 samples.

Results

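Macrophage efferocytosis and scavenger receptors were examined in CX3CR1-EGFP+ osteoclast precursors from calvarial bone. The group held 10 genes that were chosen by symbol from 24346 gene symbols: the receptors *Mertk*, *Axl*, *Mrc1*, *Cd163*, *Adgre1*, *Msr1*, *Marco*, *Stab1* and *Vcam1*, and the ligand *Gas6*. Efferocytosis is the engulfment of dying cells by phagocytes. MERTK and AXL are receptor tyrosine kinases that bind phosphatidylserine on the dying cell through bridging proteins, GAS6 for both and protein S for MERTK. Scavenger receptors such as MSR1, MARCO and STAB1 take up modified lipoproteins, microbes or cell debris, and CD163 takes up hemoglobin bound to haptoglobin. In bone marrow, resident macrophages with F4/80 (the product of *Adgre1*) and VCAM1 on their surface hold developing red cells and clear the expelled nuclei.

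The study compared 3 mice given a JAK inhibitor with 3 mice given vehicle, and asked what the inhibitor changed in the cells that give rise to osteoclasts. All 6 were CX3CR1-EGFP knock-in mice, in which green fluorescence marks monocytes and related cells, and all received LPS (20 mg/kg) in the calvarial periosteum. Treated mice were given ABT-317, a JAK1 inhibitor, at 60 mg/kg by mouth 2 times a day for 5 days, after which EGFP+ cells were sorted from crushed calvaria. Age, sex, strain background and knock-in copy number of these mice are not given in the sources used here, there was no group without LPS, and the cells were sorted on EGFP. Values are FPKM, a level per transcript length and library size, so levels can be compared between genes. Each mouse had 1 table, and the FPKM of a mouse summed to between 688372 and 775790. The read depth is unknown, so no counting interval is given. Vehicle-treated mouse 3 stood apart: over the tested genes its log2 values had correlations of 0.973 and 0.975 with vehicle-treated mice 2 and 1, which had a correlation of 0.985 with each other. Log2 fold changes and gene differences that moved by over 1.5 times without it are also given without it. Among the cell type markers this was done for *Cx3cr1* only.

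The 10 genes covered a wide range of levels. *Adgre1* was the highest, at 63.2 to 91.9 FPKM over the 6 mice, and supplied 37.3% to 65.5% of the summed FPKM of the group. In vehicle-treated mice, mean levels then ran from *Msr1* (28.9) through *Marco* (25.4), *Vcam1* (11.6), *Mertk* (5.01), *Stab1* (4.82), *Mrc1* (2.42), *Gas6* (2.32) and *Axl* (1.78) to *Cd163* (1.40). Apart from *Adgre1*, whose vehicle values all lay above those of *Msr1*, neighbors in this order overlapped in range between vehicle-treated mice. *Adgre1* stood at the 85.9th percentile of mean level among the tested genes and *Cd163* at the 8.61st percentile. All 10 genes reached 1 FPKM in at least 1 mouse of each group, so none passed the filter through 1 group alone, and 5 did so in every mouse. *Tyro3*, which encodes the other receptor of the MERTK and AXL family and was singled out after its values were seen, was listed at 0 in all 6 mice.

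**Figure D1:**
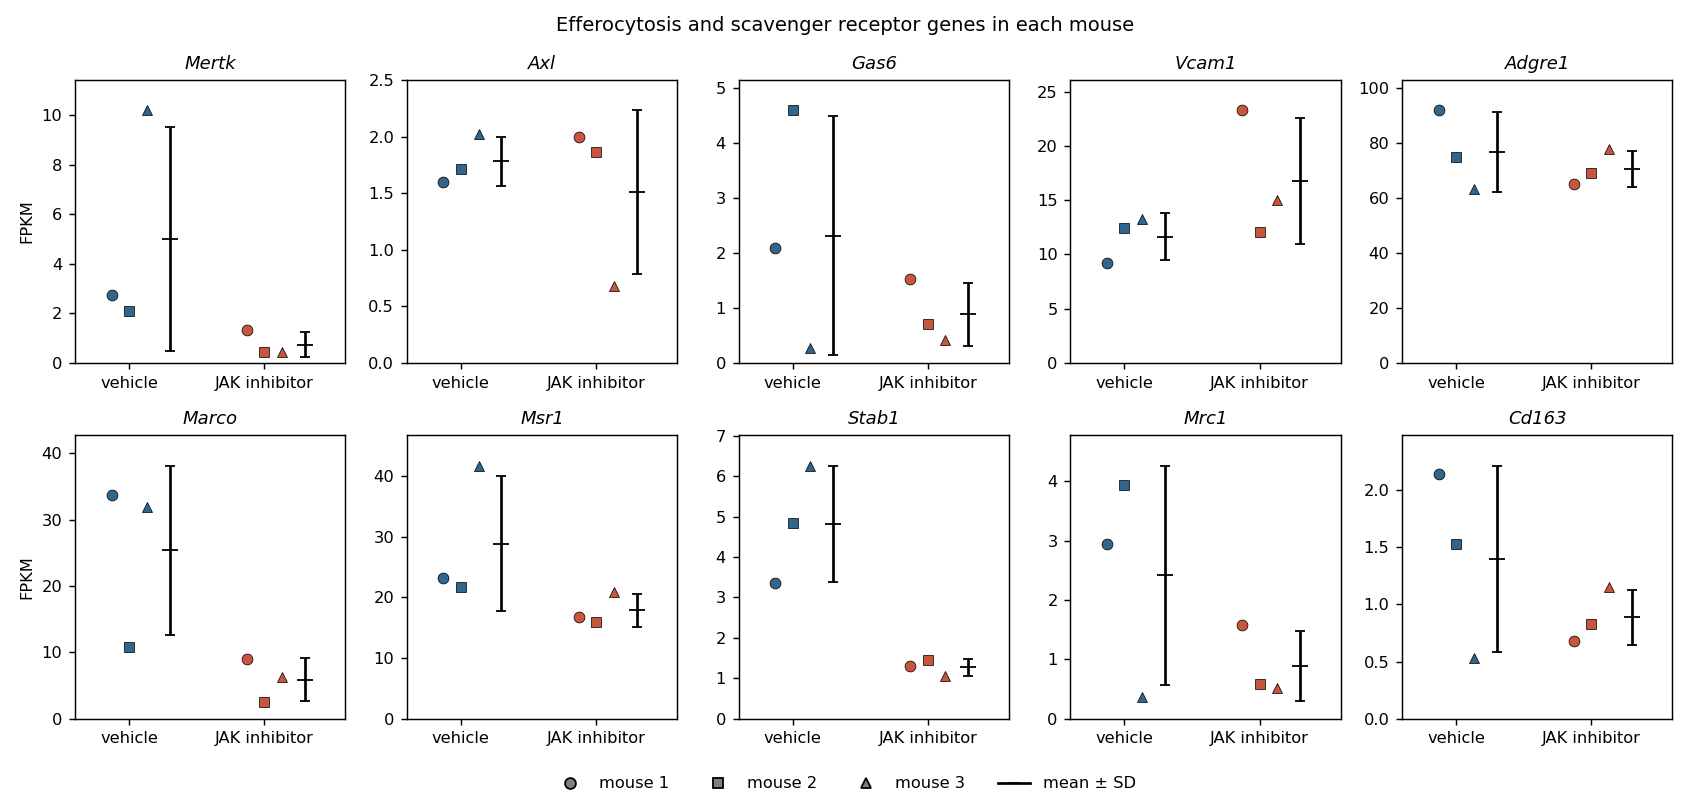
FPKM of the 10 genes in each mouse, with 1 panel per gene and its own axis from 0. Symbols mark mice 1 to 3 of the vehicle group (blue) and of the JAK inhibitor group (red), where equal numbers do not mark paired animals, and the bar is the mean ± SD (n = 3). The groups are apart for *Mertk*, *Marco*, *Msr1* and *Stab1*, and vehicle-treated mouse 3 is the lowest of all 6 mice for *Gas6*, *Mrc1*, *Cd163* and *Adgre1*.

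JAK inhibitor-treated mice had lower levels of *Stab1*, *Marco*, *Mertk* and *Msr1*, with no overlap between the groups for any of the 4. *Mrc1*, *Gas6*, *Cd163*, *Axl* and *Adgre1* had lower group means but overlapped, and *Vcam1* alone had a higher mean. In limma, 0 of the 10 genes passed an adjusted p of 0.05, which 0.133% of the 11301 tested genes did (0.0973% lower and 0.0354% higher). An unadjusted p under 0.05 in limma was reached by 4 of the 10 genes, all lower, and by 16% of all tested genes (9.4% lower and 6.57% higher). Of these 4 genes, *Stab1*, *Marco* and *Mertk* also had a log2 fold change of -1 or lower, as 1.38% of all tested genes did, and a log2 fold change of that size at any p was found for 1.6%. The shares at an unadjusted p correspond to 1062 lower and 742 higher genes, and scaling each mouse to a common FPKM sum turned this split to 757 lower and 990 higher, while the 4 genes were lower at that p under this scaling as well and *Vcam1* was higher. The groups did not overlap for 4 of the 10 genes, all lower, and for 22% of all tested genes (12.1% lower and 9.92% higher). The median log2 fold change was -0.61 over the 10 genes and -0.004 over all tested genes. In sorted bulk cells, fewer cells of a type and less RNA per cell cannot be told apart.

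**Figure D2:**
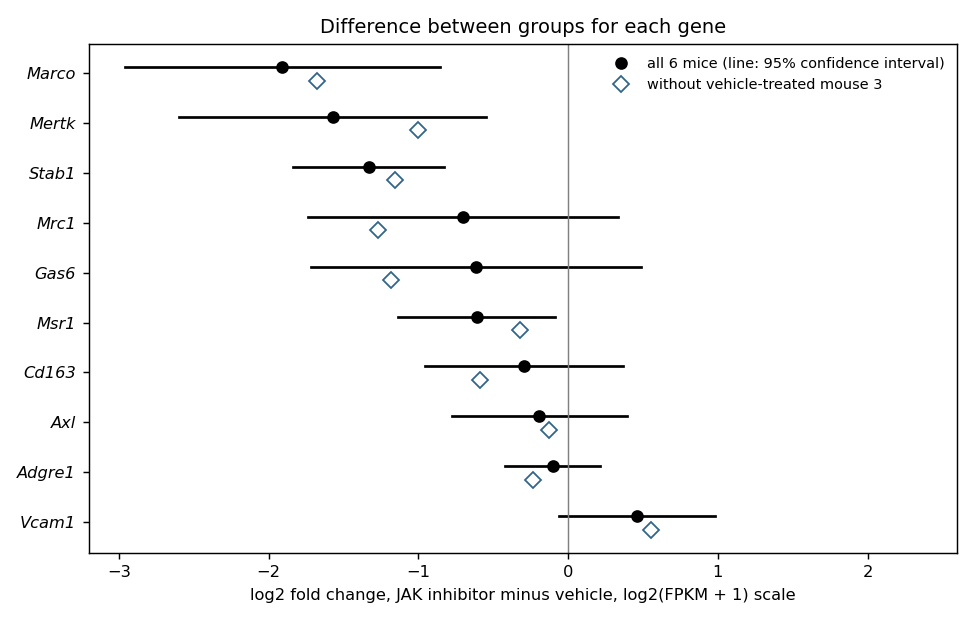
Log2 fold change of each gene (JAK inhibitor minus vehicle, on the log2(FPKM + 1) scale), sorted from lowest to highest. Black points with lines are the estimates from 6 mice with 95% confidence intervals from limma, and open diamonds are the estimates without vehicle-treated mouse 3. The intervals of *Marco*, *Mertk*, *Stab1* and *Msr1* lie below 0, and leaving out the mouse moves *Mrc1*, *Gas6* and *Cd163* further from 0.

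*Stab1* encodes stabilin-1, a multifunctional scavenger receptor of macrophages and sinusoidal endothelium. It lies on the minus strand of chromosome 14 (31139013 to 31168641, GENCODE M21 on GRCm38, the assembly also called mm10). *Stab1* had an FPKM of 3.36, 4.83 and 6.26 in vehicle-treated mice 1 to 3 and of 1.29, 1.46 and 1.05 in JAK inhibitor-treated mice 1 to 3. The groups did not overlap, with all vehicle values above all treated values, and the treated mice lay close together. The log2 fold change (JAK inhibitor minus vehicle) was -1.33 (standard error, SE, 0.22 and limma adjusted p = 0.0725), and *Stab1* ranked 33rd of the tested genes by p. An exact 2-sided permutation test gave p = 0.1 for *Stab1*, which is the smallest value 3 mice against 3 allow. Exons of *Stab1* share 112 of 10288 bases with *Nt5dc2* on the opposite strand, and whether counting used strand is not given. *Nt5dc2* itself had 131.6, 130.8 and 139.3 FPKM with vehicle and 104.9, 119.6 and 105.3 with JAK inhibitor, which is -0.28 as a log2 fold change, and its part in the *Stab1* values was not tested.

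*Marco* (chromosome 1, 120474538 to 120505024, minus strand) encodes a class A scavenger receptor with a collagen-like stalk that binds bacteria and particles. It was at 33.6, 10.7 and 31.8 FPKM with vehicle and at 8.92, 2.54 and 6.197 FPKM with JAK inhibitor. The groups did not overlap, although vehicle-treated mouse 2 came close to JAK inhibitor-treated mouse 1. Its log2 fold change of -1.91 (SE 0.46 and limma adjusted p = 0.120) was the largest in size among the 10 genes at a pseudocount of 1, whereas *Mertk* was larger at a pseudocount of 0.1 (-2.40 against -2.09). *Msr1* (chromosome 8, 39581685 to 39642673, minus strand), the founding class A scavenger receptor, had 23.2, 21.6 and 41.8 FPKM with vehicle and 16.7, 15.9 and 20.95 with JAK inhibitor. The groups were apart, but the lowest vehicle value and the highest treated value were close to each other, and vehicle-treated mouse 3 stood well above the rest. The log2 fold change of *Msr1* was -0.61 (SE 0.23 and limma adjusted p = 0.249), and -0.32 without vehicle-treated mouse 3. An exact 2-sided permutation test gave p = 0.1 for both receptors. The difference in log2(FPKM + 1) of *Marco* minus *Msr1* within each mouse averaged -0.27 ± 0.74 (SD, n = 3) in vehicle-treated mice, compared with -1.57 ± 0.71 (SD, n = 3) under JAK inhibitor, and the groups overlapped (exact 2-sided permutation test, p = 0.2, adjusted p = 0.233 over 7 pairs of genes). An unequal change of the 2 class A receptors was therefore not shown.

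*Mertk* (chromosome 2, 128698956 to 128802894, plus strand) encodes the kinase receptor through which macrophages engulf apoptotic cells. Its FPKM was 2.74, 2.09 and 10.2 with vehicle and 1.34, 0.456 and 0.444 with JAK inhibitor. The groups did not overlap, and vehicle-treated mouse 3 was far above all other mice. The log2 fold change was -1.57 (SE 0.45 and limma adjusted p = 0.158), and without vehicle-treated mouse 3 it was -0.999 with groups still apart. *Axl* (chromosome 7, 25757273 to 25788705, minus strand), the related kinase receptor, had 1.602, 1.71 and 2.02 FPKM with vehicle and 1.99, 1.86 and 0.677 with JAK inhibitor. Only JAK inhibitor-treated mouse 3 was low, and the other 5 mice lay within a narrow range. The log2 fold change of *Axl* was -0.19 with a 95% confidence interval from -0.78 to 0.40, and it was 0.08 without that mouse. Within each mouse, log2(FPKM + 1) of *Mertk* minus *Axl* averaged 0.87 ± 0.90 (SD, n = 3) in vehicle-treated mice, compared with -0.52 ± 0.40 (SD, n = 3) under JAK inhibitor. The groups were apart for this difference (exact 2-sided permutation test, p = 0.1, the smallest possible, adjusted p = 0.175 over 7 pairs). This pair was chosen after the values of both genes were seen. The group difference was -1.38 with all 6 mice and -0.87 without vehicle-treated mouse 3, with groups apart in both cases.

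*Gas6* (chromosome 8, 13465374 to 13494490, minus strand), which encodes the bridging ligand of both kinases, had 2.09, 4.60 and 0.268 FPKM with vehicle and 1.52, 0.711 and 0.423 with JAK inhibitor. Vehicle-treated mice 1 and 2 were the highest of all mice, whereas vehicle-treated mouse 3 was the lowest. Its log2 fold change was -0.61 (SE 0.49 and limma adjusted p = 0.577), -1.18 without vehicle-treated mouse 3 and -0.11 without vehicle-treated mouse 2. Protein S, the other bridging ligand of MERTK, is encoded by *Pros1*, which had 16.7, 14.2 and 10.3 FPKM with vehicle and 21.5, 25.4 and 23.6 with JAK inhibitor. *Pros1* was thus the more abundant ligand in every mouse, and its log2 fold change of 0.75 (SE 0.17 and limma adjusted p = 0.109) had groups that did not overlap. The group difference in log2(FPKM + 1) of *Pros1* minus *Gas6* was 1.37, but the groups overlapped (exact 2-sided permutation test, p = 0.2, adjusted p = 0.233 over 7 pairs). Without vehicle-treated mouse 3 that difference was 1.76 and the groups were apart (exact 2-sided permutation test, p = 0.1, the smallest possible). The exons of *Gas6* share 34 of 2548 bases with *Tmem255b* on the other strand, which was listed at 0 in every mouse.

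*Mrc1* (chromosome 2, 14229392 to 14332057, plus strand) encodes the mannose receptor CD206, an endocytic receptor of tissue macrophages. It had 2.95, 3.94 and 0.361 FPKM with vehicle and 1.57, 0.587 and 0.509 with JAK inhibitor. *Cd163* (chromosome 6, 124304656 to 124330527, plus strand) had 2.15, 1.53 and 0.531 FPKM with vehicle and 0.682, 0.829 and 1.15 with JAK inhibitor. Both genes showed the arrangement of *Gas6*, in which vehicle-treated mice 1 and 2 were above all JAK inhibitor-treated mice and vehicle-treated mouse 3 was below all of them. The log2 fold changes over 6 mice were -0.70 for *Mrc1* (SE 0.46 and limma adjusted p = 0.500) and -0.29 for *Cd163* (SE 0.29 and limma adjusted p = 0.670). Without vehicle-treated mouse 3 they were -1.27 and -0.59. The value was -0.34 for *Mrc1* without vehicle-treated mouse 2 and -0.067 for *Cd163* without vehicle-treated mouse 1.

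*Adgre1* (chromosome 17, 57358691 to 57483527, plus strand), which encodes the macrophage surface protein F4/80, had 91.9, 74.9 and 63.2 FPKM with vehicle and 65.1, 68.995 and 77.9 with JAK inhibitor. The groups overlapped fully, since vehicle-treated mice held both the highest and the lowest value. The log2 fold change was -0.10 with a 95% confidence interval from -0.42 to 0.21, and it was -0.23 when vehicle-treated mouse 3 was left out and 0.03 when vehicle-treated mouse 1 was. Relative to *Adgre1* in the same mouse, *Stab1*, *Marco* and *Mertk* were lower with JAK inhibitor by 1.23, 1.80 and 1.47 on the log2(FPKM + 1) scale, with groups apart for each gene (exact 2-sided permutation tests, p = 0.1, adjusted p = 0.175 over 7 pairs). The pairs were chosen after the values of each gene were seen, and the adjustment over 7 pairs does not cover that choice. Without vehicle-treated mouse 3, the group differences relative to *Adgre1* were -0.92 for *Stab1*, -1.44 for *Marco* and -0.77 for *Mertk*, still with groups apart. Exact 2-sided permutation tests without that mouse gave p = 0.1 for *Stab1*, the smallest possible, and p = 0.2 for *Marco* and for *Mertk*. Relative to *Adgre1*, *Msr1* differed by -0.51 with overlapping groups (exact 2-sided permutation test, p = 0.3), and by -0.09 without vehicle-treated mouse 3. *Vcam1* (chromosome 3, 116109949 to 116129688, minus strand), an adhesion receptor for the integrin of *Itga4* and *Itgb1*, had 9.21, 12.5 and 13.2 FPKM with vehicle and 23.3, 12.1 and 15.005 with JAK inhibitor. JAK inhibitor-treated mouse 2 lay among the vehicle-treated mice, and the other treated mice were above them. Its log2 fold change was 0.46 with a 95% confidence interval from -0.06 to 0.98 (limma adjusted p = 0.370), and it was 0.21 without JAK inhibitor-treated mouse 1. Exons of *Vcam1* share 61 of 8870 bases with *Gm43109* on the opposite strand.

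**Figure D3:**
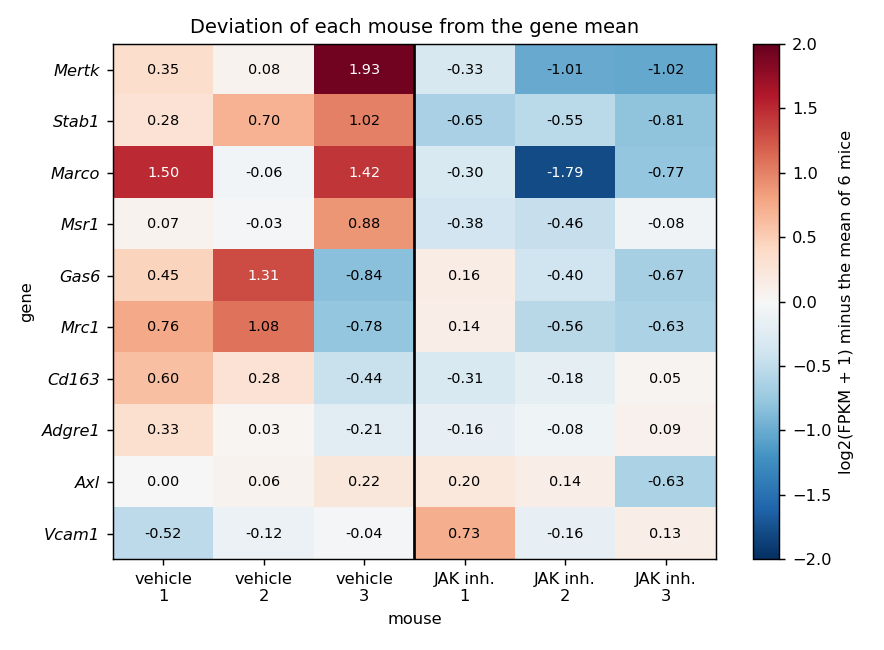
Deviation of log2(FPKM + 1) in each mouse from the mean of the 6 mice, for each of the 10 genes. Red is above the mean and blue below, and the vertical line parts the vehicle group from the JAK inhibitor group. *Mertk*, *Stab1*, *Marco* and *Msr1* are above 0.8 in vehicle-treated mouse 3, while *Gas6*, *Mrc1* and *Cd163* are at -0.84, -0.78 and -0.44 there.

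In vehicle-treated mouse 3, the departure from the other vehicle-treated mice ran both ways. The 10 genes parted in that mouse in opposite directions. *Gas6*, *Mrc1* and *Cd163* were at 0.0801, 0.105 and 0.289 times the mean of vehicle-treated mice 1 and 2, and a ratio of 0.3 or lower was found for 1.27% of 10465 genes with a mean of at least 1 FPKM over the vehicle-treated mice. *Mertk*, *Msr1* and *Stab1* were at 4.23, 1.86 and 1.53 times that mean, and a ratio of 1.5 or higher was found for 8.18% of these genes. *Marco* was at 1.43 times and *Adgre1* at 0.759 times. Without vehicle-treated mouse 3, 7 of the 10 genes were lower at an unadjusted p under 0.05 in limma (*Mertk*, *Gas6*, *Mrc1*, *Cd163*, *Msr1*, *Marco* and *Stab1*), and *Vcam1* was higher. Of the 11130 genes tested without that mouse, 13.5% reached this p (8.12% lower and 5.39% higher). The 7 lower genes also had groups apart, as 16.8% of all genes did on the lower side and 14% on the higher side. None of the 10 genes passed an adjusted p of 0.05 without that mouse, against 0.845% of all genes, and the lowest limma adjusted p was 0.0632 for *Stab1*.

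The sequences before the transcription starts of the 3 genes with the largest differences are given to show what the 3 regions hold. RefSeq sequences on GRCm38.p6 were found for 7 of the 10 genes. Each line holds the 250 bases before the start, 5′ to 3′ on the strand of the gene, and capitals mark the letters GAGGAA or their reverse complement, the core of sites bound by the macrophage transcription factor PU.1. The windows are chr14:31168642-31168891 for *Stab1*, chr1:120505025-120505274 for *Marco* (both minus strand) and chr2:128698665-128698914 for *Mertk* (plus strand), and 0 of their bases lie in an annotated exon. For *Mertk*, the RefSeq start lies before the GENCODE start of 128698956. Its first transcribed bases were not found in a GENCODE transcript, unlike those of *Stab1* and *Marco*.
Stab1: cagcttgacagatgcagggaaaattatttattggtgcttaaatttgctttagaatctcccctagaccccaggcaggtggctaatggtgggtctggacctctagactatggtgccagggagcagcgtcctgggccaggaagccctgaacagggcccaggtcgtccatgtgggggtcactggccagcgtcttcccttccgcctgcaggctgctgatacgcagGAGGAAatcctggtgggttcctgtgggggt
Marco: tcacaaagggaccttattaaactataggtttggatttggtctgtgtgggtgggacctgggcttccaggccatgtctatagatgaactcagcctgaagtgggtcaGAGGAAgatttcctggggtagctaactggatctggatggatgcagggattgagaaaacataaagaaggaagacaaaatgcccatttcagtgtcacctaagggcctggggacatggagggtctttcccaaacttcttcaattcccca
Mertk: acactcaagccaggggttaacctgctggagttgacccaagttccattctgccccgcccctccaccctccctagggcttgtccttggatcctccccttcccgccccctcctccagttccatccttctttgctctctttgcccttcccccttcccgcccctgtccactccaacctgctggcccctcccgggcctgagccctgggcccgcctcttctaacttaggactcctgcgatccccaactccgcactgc
The GAGGAA letters began 30 bases before the start in *Stab1* and 146 bases before it in *Marco*, and were not in this window of *Mertk*. They were present in 4 of the 7 windows (also *Axl* and *Mrc1*) and in 23.3% of 32851 promoter windows of that length. The STAT motif TTCNNNGAA was in 0 of the 7 windows and in 7.02% of all, and the AP-1 motif TGAGTCA was in 0 of the 7 and in 4.46% of all. The direct repeats bound by interferon regulatory factors (2.98% of all windows) and by the liver X receptor (0.0152%) and GAGGAAGT, a longer form of GAGGAA (2.44%), were in 0 of the 7 as well. Both strands were searched. A match or its absence describes these letters alone.

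Counts in the related lists can be read beside the 9.4% lower and 6.57% higher genes among all 11301 tested at an unadjusted p under 0.05 in limma, and 0 genes of these lists passed the adjusted threshold. Of 36 tested genes of the efferocytosis machinery, 8 were lower and 5 higher at that p, and the median log2 fold change was 0.06. *C1qb*, a chain of the complement protein C1q that coats dying cells, had 163.4, 176.0 and 93.3 FPKM with vehicle and 61.8, 31.1 and 32.4 with JAK inhibitor, with a log2 fold change of -1.78 (SE 0.30 and limma adjusted p = 0.0721). The other C1q chains, added after their values were seen, had log2 fold changes of -1.66 (*C1qa*) and -1.51 (*C1qc*) with overlapping groups. *Thbs1*, which encodes a bridging protein to the vitronectin receptor, had a log2 fold change of -1.19, and the nucleotide receptor gene *P2ry6* one of -0.63. *Cd300lf*, a lipid-binding receptor of myeloid cells, was at 57.8, 39.96 and 87.1 FPKM with vehicle and at 33.0, 27.4 and 23.7 with JAK inhibitor. Its log2 fold change was -1.05 (limma adjusted p = 0.117).

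**Figure D4:**
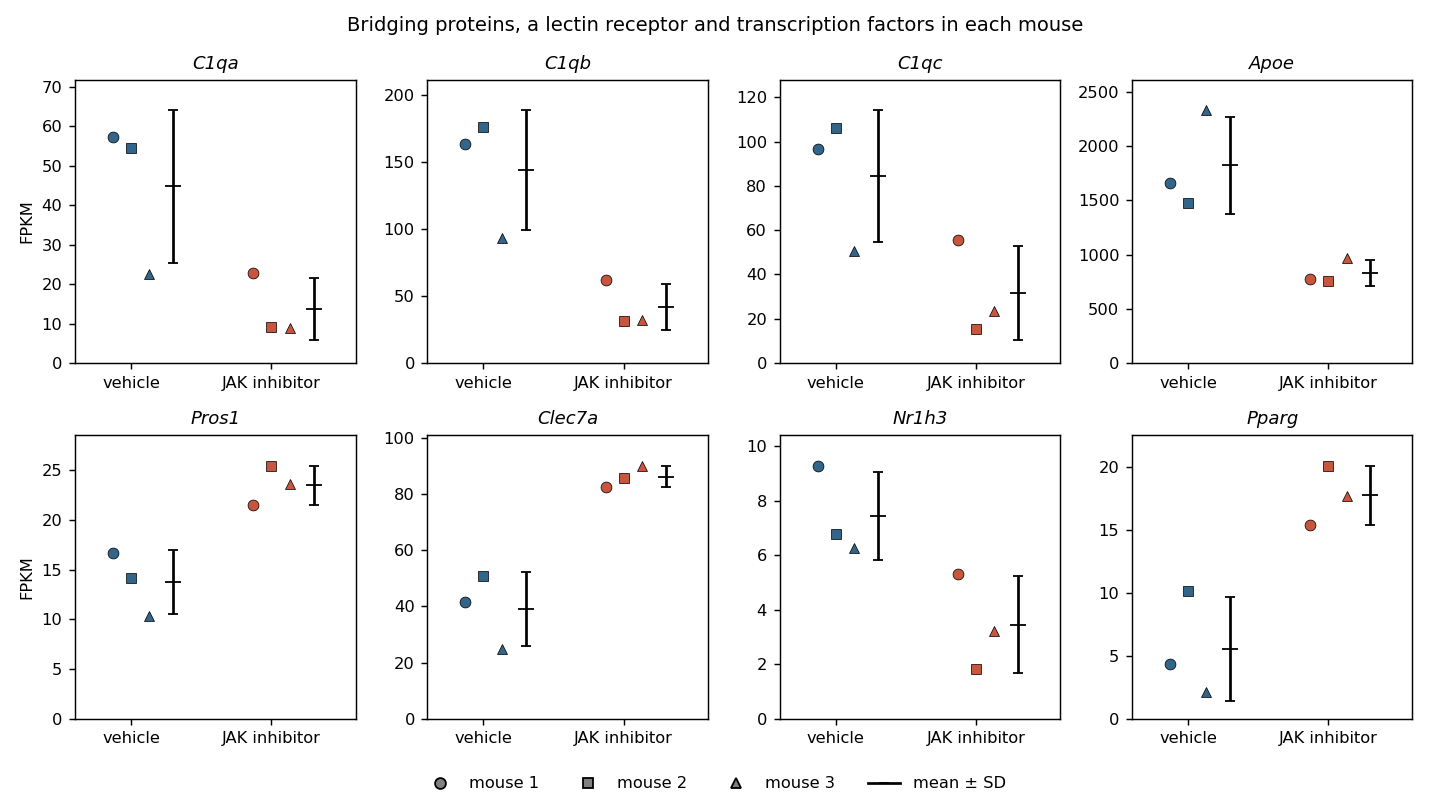
FPKM of 8 related genes in each mouse, drawn as in the plot of the 10 genes, with the mean ± SD (n = 3) as a bar. *Apoe*, *C1qb* and *Nr1h3* are lower and *Pros1*, *Clec7a* and *Pparg* higher in all 3 JAK inhibitor-treated mice, whereas the groups of *C1qa* and *C1qc* overlap. *C1qa* and *C1qc* were chosen after their values were seen.

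Of 18 tested genes of other scavenger and endocytic receptors, 3 were lower and 3 higher at an unadjusted p under 0.05 in limma, with a median of -0.08. *Cxcl16*, a chemokine that also serves as a receptor for oxidized lipids, had a log2 fold change of -2.31, *Cd14* of -0.83 and *Tlr2* of -0.72 (-0.45 without vehicle-treated mouse 3). *Clec7a*, the receptor for fungal glucans, was at 41.5, 51.0 and 24.7 FPKM with vehicle and at 82.7, 85.98 and 90.2 with JAK inhibitor, or 1.18 on the log2 scale (SE 0.22 and limma adjusted p = 0.0886). *Cd36*, a fatty acid and lipoprotein receptor, differed by 0.84 on that scale, and its groups overlapped. Among 25 tested genes of bone marrow and resident macrophages, 7 were lower and 2 higher, with a median of -0.35. *Apoe*, which carries lipids out of macrophages, had a mean of 1823 FPKM with vehicle and 832 with JAK inhibitor (-1.11 as log2 fold change, SE 0.17, limma adjusted p = 0.0557). *Ms4a7* (-1.21) and the Fc receptor gene *Fcgr1* (-1.15) were lower as well, and *Hpgd*, which degrades prostaglandins, had a log2 fold change of 1.11.

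Of 24 tested transcription factors that act on macrophage receptor genes, 5 were lower and 7 higher at an unadjusted p under 0.05 in limma, with a median of 0.04. *Nr1h3* encodes a liver X receptor that drives *Mertk* in macrophages, and had 9.28, 6.78 and 6.27 FPKM with vehicle and 5.32, 1.81 and 3.21 with JAK inhibitor (-0.99 as log2 fold change, limma adjusted p = 0.159). The other liver X receptor gene, *Nr1h2*, was added after its values were seen. It was at 41.6 to 52.9 FPKM over the 6 mice, with a log2 fold change of 0.09 and overlapping groups. *Pparg*, a lipid-sensing receptor of macrophages, had 4.35, 10.1 and 2.14 FPKM with vehicle and 15.4, 20.1 and 17.8 with JAK inhibitor (1.71 as log2 fold change, limma adjusted p = 0.109). The log2 fold changes of *Stat3*, *Id3* and *Nr4a1* were -0.35, 1.22 and 1.14, and those of *Id3* and *Nr4a1* had overlapping groups. Among 10 tested genes of shedding proteases and their TIMP inhibitors, 5 were lower and 0 higher, namely *Mmp14* (-2.39), *Adam8* (-1.72), *Mmp9* (-1.32, overlapping groups), *Adam9* (-0.54) and the inhibitor *Timp2* (-0.45), with a median of -0.50. Without vehicle-treated mouse 3 the log2 fold change was -0.66 for *Mmp9* and -0.33 for *Adam9*, and without vehicle-treated mouse 2 it was -2.01 for *Mmp9*. Among 7 tested ligands of the receptors, *Hp*, which carries hemoglobin to CD163, was lower (-0.84), and *Pros1*, *Itga4* (0.59) and *Itgb1* (0.25) were higher, with a median of 0.25.

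**Figure D5:**
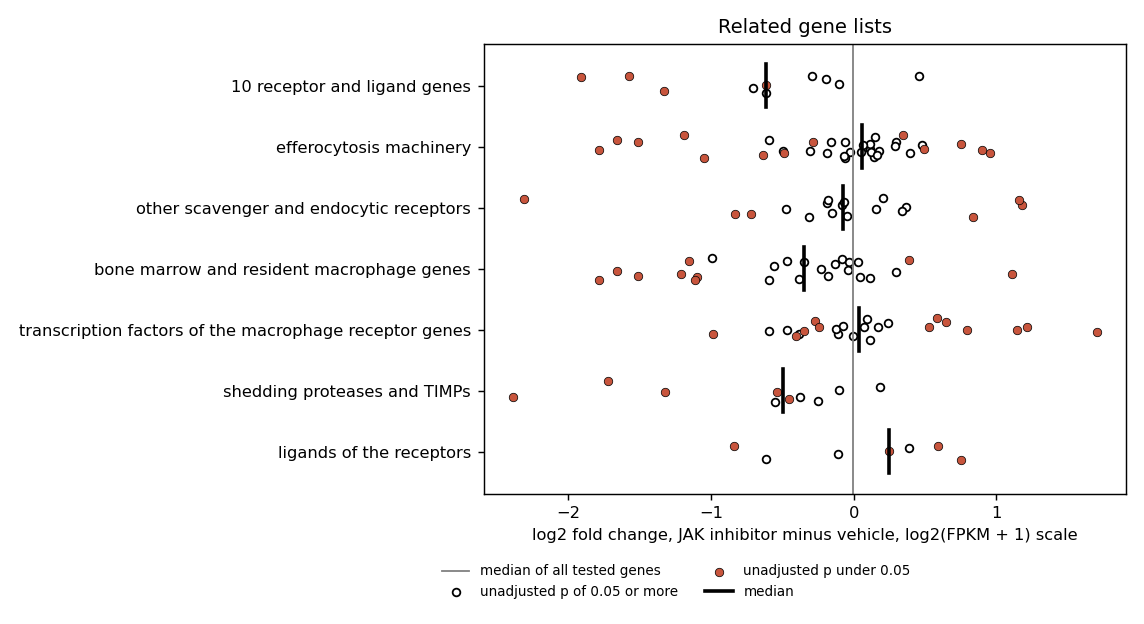
Log2 fold change (JAK inhibitor minus vehicle) of each tested gene in 7 lists, with 1 point per gene. Filled points have an unadjusted limma p under 0.05, black bars are list medians, and the gray line is the median of all tested genes. The medians run from -0.61 for the 10 receptor and ligand genes to 0.25 for the ligands of the receptors, and each list holds genes on both sides of 0.

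Over the 6 mice, the genes most like the mean standardized profile of the 10 genes were *Irgm1* (Pearson r = 0.992), *C1qb* (0.991), *Ticam1* (0.991), *Psmc5* (0.988) and *Axin1* (0.984), among genes with a mean of at least 5 FPKM. These correlations describe 6 libraries in 2 groups, and all 5 genes had groups apart.

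The cells carried the markers of the labeled lineage, but neutrophil markers were high as well. Over the 6 mice, *Csf1r*, the receptor for the main macrophage growth factor, was at 355 to 422 FPKM and *Ly6c2*, a marker of classical monocytes, at 2751 to 4617 FPKM. *Cx3cr1*, whose promoter drives the reporter, was at 30.1, 31.5 and 15.5 with vehicle and 30.1, 29.5 and 36.1 with JAK inhibitor (0.36 as log2 fold change, limma adjusted p = 0.512), and its log2 fold change was 0.042 without vehicle-treated mouse 3. *Stab1*, *Vcam1*, *Axl* and *Gas6* are also expressed by endothelial or stromal cells. The endothelial marker *Cdh5* was at 0.034 to 0.407 FPKM and the bone matrix gene *Col1a1* at 0.033 to 0.184, while *Pdgfra*, *Sp7* and *Dcn* were listed at 0 in every mouse. Of 12 endothelial markers, 4 were tested and 1 was higher at an unadjusted p under 0.05 (sums of 20.2 to 40.0 FPKM with vehicle and 35.6 to 46.4 with JAK inhibitor), and of 14 stromal markers 2 were tested and neither passed (4.75 to 8.06 and 7.15 to 8.95). The higher gene was *Pecam1*, at 27.1, 16.4 and 11.4 FPKM with vehicle and 30.9, 34.4 and 24.9 with JAK inhibitor. Its log2 fold change was 0.75 with overlapping groups, and vehicle-treated mouse 3 was the lowest of the 6 mice. The other tested endothelial markers were *Egfl7* (6.49 to 9.80), *Eng* (1.405 to 3.23) and *Vwf* (0.445 to 1.31). The tested stromal markers were *Runx2* (2.98 to 6.56) and *Pdgfrb* (0.408 to 2.58). Osteoclast markers were lower in 7 of 7 tested genes, 6 of them at an unadjusted p under 0.05, with sums of 200.7 to 677.1 FPKM against 145.0 to 150.2, and *Calcr* was listed at 0. Non-classical monocyte markers were higher in 8 of 8 genes, 7 of them at that p, with sums of 223.2 to 565.1 FPKM against 588.8 to 705.0. Among the other lists, lower and higher genes at that p numbered 4 and 0 of 12 for monocytes, 2 and 3 of 11 for neutrophils, 0 and 3 of 7 for red cells, 0 and 0 of 3 for B cells, 1 and 1 of 6 for T and NK cells, 0 and 1 of 6 for dendritic cells, and 1 and 0 of 2 for megakaryocytes. Of these, sums did not overlap for red cell markers (28.1 to 62.2 FPKM with vehicle and 89.8 to 165.1 with JAK inhibitor) and for T and NK cell markers (203.5 to 373.1 and 491.4 to 572.98). *Nkg7* supplied most of the T and NK cell sum, at 328.3, 363.1 and 166.6 FPKM with vehicle and 557.1, 498.98 and 489.3 with JAK inhibitor, whereas *Gzma* had a log2 fold change of -2.09 and 3 of the 6 tested genes of that list had lower means. The megakaryocyte marker *Pf4* had a log2 fold change of -1.82, and B cell markers summed to 28.8 to 34.8 FPKM with vehicle and 31.0 to 39.3 with JAK inhibitor, most of it *Cd79b* (26.7 to 35.4 over the 6 mice), while *Ms4a1*, *Pax5* and *Ebf1* were listed at 0. Neutrophil markers summed to 17208 to 23283 FPKM with vehicle and 17314 to 24502 with JAK inhibitor. Monocyte markers summed to 31073 to 40251 and 31366 to 40988 FPKM. Over the 6 mice, *S100a8* was at 4970 to 15469 FPKM, *Mpo* at 1650 to 6106 and *Elane* at 1003 to 4023. *Camp*, *Elane* and *Mpo* were the higher neutrophil genes and *Mmp8* and *Cxcr2* the lower ones, all with groups apart. The part of these cell types in the values of the 10 genes was not tested.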

How the data were processed

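RNA-Seq was measured in sorted EGFP+ cells, with 1 library per mouse and 3 mice per group. The authors deposited FPKM, 1 value per gene symbol, in 1 table per mouse. Per the labels, the processing notes name TopHat2 2.0.13, Bowtie2 2.2.3, SAMtools 0.1.19, Cufflinks 2.2.1 and the build mm10. The annotation is not given in the sources used here. The labels name a SMART-Seq HT and Nextera library, and the methods a TruSeq Stranded mRNA kit with single-end reads of 75 bases. Ratios of low values between libraries showed no clear common step (at most 27 genes in a bin), so the depth remains unknown.

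Groups and mouse numbers were taken from the sample titles. Genes with at least 1 FPKM in at least 1 mouse were kept, and log2(FPKM + 1) was compared between groups by the moderated statistics of limma (version 3.58.1, R 4.3.3), with a mean-variance trend and Benjamini-Hochberg correction over all 11301 genes. Fold changes on this scale understate those of low genes. Whether the mice of a group came from separate litters or days is not given. The p-values of limma set a group difference against the spread between these mice, moderated toward that of tested genes of similar level. Single values had exact 2-sided permutation tests of 3 against 3. The 7 differences between 2 genes were chosen after the values were seen.

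The 10 genes, the related lists and the markers were chosen with earlier results of these data known. Named are the 10 genes, *Cx3cr1*, up to 5 genes of each related list with the smallest p under 0.05, the 5 genes most like the group, and markers that are at 0 or high. Other genes and markers were named after their values were seen. 2 of the listed symbols were not matched. Alternatives were a pseudocount of 0.1, other filters, 4 scalings, no trend, library weights, a replicate block by mouse number, and leaving out single mice. Same-numbered mice did not deviate together (correlations of 0.016, 0.054 and -0.00016), so the numbers were not taken as pairs. The model was tested on simulated data. Positions are from GENCODE M21, and Python 3.11.15 with pandas 2.3.3 and matplotlib 3.10.9 was used for joins and plots.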

Additional observations from a re-analysis of the deposited data

How the results depend on the processing

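The 4 receptors with separate groups kept their direction under all 16 alternatives, with log2 fold changes of -1.81 to -1.16 for *Stab1*, -2.42 to -1.49 for *Marco*, -2.40 to -0.999 for *Mertk* and -0.78 to -0.32 for *Msr1*. *Msr1* had an unadjusted p of 0.05 or more without a filter and without JAK inhibitor-treated mouse 1 or 2. With 1 mouse left out, the log2 fold change was -0.34 to 0.076 for *Axl* and -0.23 to 0.033 for *Adgre1*, above 0 without JAK inhibitor-treated mouse 3 and vehicle-treated mouse 1, respectively. The number of the 10 genes at an unadjusted p under 0.05 was 7 with library weights (6 lower, and *Vcam1* higher) and 3 without a filter. With 1 mouse left out it was 3 to 8, the 8 without vehicle-treated mouse 3 (7 lower, and *Vcam1* higher). Of all tested genes, 1804 of 11301 reached this p without these changes, 1830 with library weights and 2016 of 16246 without a filter. With 1 mouse left out, 1349 to 1870 did, and 1504 of 11130 did without vehicle-treated mouse 3. Groups apart were found for 4 to 7 of the 10 genes with 1 mouse left out, and for 7 without vehicle-treated mouse 3. Without that mouse, 16.8% of all tested genes had groups apart on the lower side and 14% on the higher side. With 6 mice these shares were 12.1% and 9.92%. Groups part more readily with 1 mouse fewer, so these counts cannot be set directly against the 4 genes over 6 mice. Adjusted p in limma ranged from 0.0403 to 0.236 for *Stab1*, under 0.05 with library weights (0.0403) and with at least 1 FPKM in at least 3 mice (0.0492). For *Marco* it ranged from 0.00467 to 0.313, under 0.05 with the replicate block (0.00467) and without vehicle-treated mouse 2 (0.0354). The count of all genes with an adjusted p under 0.05 was 15, and was 2 without a filter, 34 with at least 1 FPKM in at least 3 mice, 2 without the trend, 63 with library weights and 67 with the replicate block. With 1 mouse left out it was 3 to 95, with 5, 6 and 3 without JAK inhibitor-treated mice 1, 2 and 3, and 95 and 94 without vehicle-treated mice 2 and 3. The causes were not tested. The block left the count among the 10 genes at 4. Of 672 alternative values over 42 named genes, 2 reversed, 36 passed the adjusted threshold and the other 634 kept their direction and side. With 3 mice per group and unknown depth, levels below 1 FPKM (*Mertk*, *Cd163*, *Gas6* and *Mrc1* in several mice) are the least certain, and *Mertk* was at -2.40 with a pseudocount of 0.1.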

Other observations

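Other genes of resident macrophages also parted in vehicle-treated mouse 3, as seen after the values of the 10 genes were known. Among 24 genes of the resident macrophage list with a mean of at least 1 FPKM in vehicle-treated mice 1 and 2, 3 were at 0.3 times that mean or lower in vehicle-treated mouse 3 and 6 were at 1.5 times or higher. The shares over all genes were 1.27% and 8.18%, but with the filter on the mean of all 3 vehicle-treated mice. A filter on mice 1 and 2 alone favors genes that are low in mouse 3, so counts and shares are not directly comparable. *Folr2*, a folate receptor of resident macrophages, had 8.26 and 6.53 FPKM in vehicle-treated mice 1 and 2 and was listed at 0 in mouse 3, and *Cd5l*, a secreted protein of tissue macrophages, had 2.46 and 3.01 and was listed at 0. *Cbr2*, a carbonyl reductase, had 7.23, 12.9 and 1.65 FPKM. The higher genes included *Spic*, the transcription factor of iron-recycling macrophages, at 3.01, 3.75 and 8.75 FPKM, and *Clec4n* at 39.9, 23.4 and 75.9. In the JAK inhibitor-treated mice, *Folr2* was at 3.33, 0.137 and 0.800 FPKM and *Cd5l* at 2.17, 0 and 1.998, and mouse 1 of that group also had the highest *Gas6*, *Mrc1* and *Mertk* among the treated mice. The same mouse had the lowest *Cd163* (0.682 FPKM) and *Adgre1* (65.1 FPKM) among the treated mice.

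*Siglec1*, which encodes the sialoadhesin of marrow macrophages, had 0.633, 0.674 and 0.038 FPKM with vehicle and 0.089, 0.133 and 0.022 with JAK inhibitor, and stayed below the filter. *Timd4*, a phosphatidylserine receptor of resident macrophages, was listed at 0 in 5 of the 6 mice and at 0.411 FPKM in vehicle-treated mouse 1. Of the engulfment receptors beside the 10 genes, *Cd300lb* had 46.7, 54.9 and 24.3 FPKM with vehicle and 69.9, 84.9 and 79.9 with JAK inhibitor, and *Itgb3* had a log2 fold change of 0.90, both with groups apart. *Timd4*, *Cd300lb* and *Itgb3* were chosen after their values were seen.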
